A study of Mus musculus with 12 samples.

Results

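The fatty acid elongase and desaturase genes were examined in the livers of mice that lack Cpt2, a step of mitochondrial fatty acid oxidation, in the liver. The 10 genes, Elovl1, Elovl2, Elovl3, Elovl5, Elovl6, Elovl7, Fads1, Fads2, Fads3 and Scd2, were taken by gene name from the 56748 genes of the deposited count table. The RNA-seq series holds 12 livers of mice fasted for 24 h, with 4 livers in each of 3 genotypes. SKO livers carried a liver-specific KO of Cpt2, whose product completes the entry of long-chain acyl groups into the mitochondrial matrix. DKO livers carried the liver-specific KO of both Cpt2 and Atf3, a transcription factor induced by stress. The controls, called WT here, are labelled as floxed for Cpt1a, Cpt1b and Cpt2, and the study's methods describe floxed C57BL6 lines and an Albumin-Cre transgene, which drives deletion in hepatocytes. The control label does not name a floxed Atf3 allele, so the groups may differ in floxed alleles as well as in deletion. Age, litter and sex of each liver are not in the labels, and the study's text gives the mice of the RNA-seq as male.

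Elongases add a 2-carbon unit to an acyl-CoA in the endoplasmic reticulum, as the first and rate-limiting step of a cycle that a reductase, a dehydratase and a second reductase complete. Elovl1, Elovl3, Elovl6 and Elovl7 act on saturated and monounsaturated chains, while Elovl2 and Elovl5 act on the polyunsaturated chains that also pass through the desaturases Fads2 (delta-6) and Fads1 (delta-5). Scd2 is a delta-9 desaturase that makes monounsaturated chains, and Fads3 is the third member of the Fads gene cluster. In liver these enzymes set the chain length and unsaturation of the acyl groups in membranes and triglycerides.

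Depth was 14710304 to 20030055 counts per liver. Cpt2 stood at 199 to 250 CPM (counts scaled to a common library size) in WT, at 109 to 159 in SKO and at 99.9 to 125 in DKO livers, so the KO groups lay below the controls in every liver. Atf3 counts were above WT in SKO and in 3 of the 4 DKO livers, with 1.11 to 2.14 CPM in the WT livers, 14.5 to 54.0 CPM in SKO, and 7.91, 10.8, 13.5 and 0.266 in the 4 DKO livers. The last of these values is from DKO replicate 4, and a count over the whole gene does not tell whether the floxed part is present in the others. That liver and SKO replicate 3 held 20855 and 18063 counts of Xist, which is transcribed from the inactive X chromosome, and 0 and 2 counts of 4 Y-linked genes, while the other livers had at most 19 Xist counts and at least 2741 Y-linked counts. Both livers are therefore female by these transcripts, and the calls of the 10 genes and the counts of called pathway genes against WT are given with and without them, as are the counts of called cell markers against WT. Over all genes DKO replicate 4 also stood apart from its group, with a chi-square per degree of freedom of 220 to 261 in its pairs with the other DKO livers, beside 31.1 to 37.4 among those 3, 20.6 to 39.6 among WT and 50.9 to 106 among SKO livers. It lay nearer to the WT livers (93.5 to 143) than the other 3 DKO livers did (189 to 224), although its Cpt2 level was 99.9 CPM and its Atf3 level was below that of every WT liver. DKO names the label throughout. Whether the label of replicate 4 is right was not tested, and that liver enters every DKO mean unless it is said to be left out. The labels list 12 liver samples without naming animals or litters, so the p-values measure the spread between these samples.

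The deposited gene positions, whose genome build is not stated in the table, place Elovl7 on chromosome 13 from 108350938 to 108422217, Elovl5 on chromosome 9 from 77824646 to 77891801 and Elovl6 on chromosome 3 from 129326004 to 129432144, all on the plus strand. Fads1, Fads2 and Fads3 lie beside each other on chromosome 19 between 10018933 and 10174241. The promoters of the 3 elongase genes called in at least 1 comparison are given as the 250 bases before the transcription start in RefSeq (build GRCm38.p6, plus strand), at chr13:108214154-108214403 for Elovl7, chr9:77917115-77917364 for Elovl5 and chr3:129532136-129532385 for Elovl6. Capitals mark a match to any of the motifs named after them.
Elovl7: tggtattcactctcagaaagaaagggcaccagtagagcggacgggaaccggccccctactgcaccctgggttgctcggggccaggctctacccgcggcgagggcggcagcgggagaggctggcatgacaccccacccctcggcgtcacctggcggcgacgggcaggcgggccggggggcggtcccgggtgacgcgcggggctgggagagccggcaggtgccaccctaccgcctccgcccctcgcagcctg
Elovl5: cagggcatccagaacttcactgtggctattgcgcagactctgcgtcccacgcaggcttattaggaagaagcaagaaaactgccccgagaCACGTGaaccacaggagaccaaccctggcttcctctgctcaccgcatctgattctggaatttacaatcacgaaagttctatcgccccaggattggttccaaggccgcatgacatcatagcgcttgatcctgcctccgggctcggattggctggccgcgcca
Elovl6: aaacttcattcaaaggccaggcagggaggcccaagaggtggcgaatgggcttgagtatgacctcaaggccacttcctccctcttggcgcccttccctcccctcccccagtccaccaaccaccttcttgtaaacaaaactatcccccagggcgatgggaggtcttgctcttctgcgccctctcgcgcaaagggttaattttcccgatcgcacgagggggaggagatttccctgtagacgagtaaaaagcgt

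RefSeq windows were at hand for 7 of the 10 genes, and not for Elovl3, Fads1 and Scd2. They were searched on both strands for the cAMP response element TGACGTCA, the AP-1 element TGANTCA, the C/EBP-ATF element TGATGCAA, the E-box CACGTG, the sterol regulatory element core TCACNCCAC and the direct repeat 1 by name. The E-box 161 bases before the start of Elovl5 was the single match in these windows of the 7 genes, and 6.02% of the 32851 windows of all genes held an E-box. The other motifs were found in 1.55% (cAMP response element), 6.75% (AP-1), 0.792% (C/EBP-ATF), 1.05% (sterol regulatory element core) and 0.0335% (direct repeat 1) of all windows. These letters were searched only in 250 bases, and their absence there says nothing of binding elsewhere.

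Per transcript length, Elovl2 and Fads2 were the most abundant of the 10 genes in WT livers, at 208 ± 16.8 and 199 ± 38.8 FPKM (counts per gene length and library size, as deposited by the authors; mean ± SD, n = 4 here and throughout). Their ranges overlapped, so the order of these neighbours is not resolved. Elovl5 followed at 128 ± 20.02 FPKM, Fads1 at 61.1 ± 10.5 and Elovl3 at 39.7 ± 8.89, with no overlap between any of these and its neighbour. Elovl1 (9.90 ± 1.34 FPKM), Fads3 (8.23 ± 3.62) and Elovl6 (5.84 ± 0.913) formed a lower tier in which neighbours overlapped. Scd2 was at 0.828 ± 0.293 FPKM and Elovl7 was the lowest at 0.101 ± 0.0767. In SKO livers the top of the order was Fads2 (273 ± 34.9 FPKM), Elovl5 (262 ± 36.4) and Elovl2 (236 ± 28.1) with overlapping ranges. Elovl7 stood there at 8.34 ± 1.26 FPKM, in one overlapping tier with Elovl3, Elovl1 and Fads3, and above Elovl6 (1.82 ± 0.570) and Scd2 (0.559 ± 0.186). In DKO livers Elovl5 (277 ± 81.6 FPKM), Elovl2 (242 ± 70.7) and Fads2 (237 ± 60.8) overlapped at the top, and Elovl6 (2.58 ± 2.26), Elovl7 (2.00 ± 1.37) and Scd2 (0.552 ± 0.147) overlapped at the bottom.

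**Figure D1:**
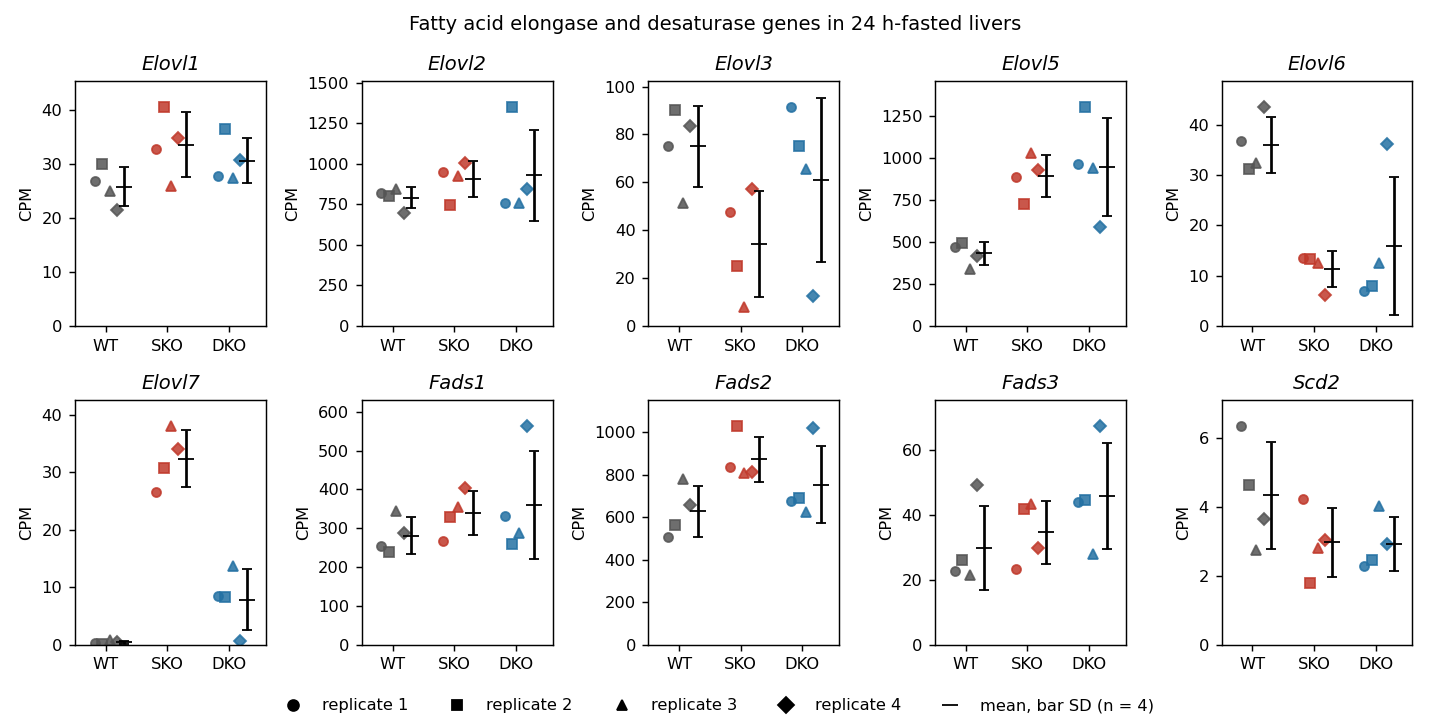
Level of each of the 10 genes in CPM (y axis, linear from 0, scaled per gene) in each liver of the 3 genotypes, with a marker per replicate and the mean with SD (n = 4) at the right of each group. Elovl7 lies at 0.127 to 0.780 CPM in WT livers, at 26.6 to 38.1 in SKO and at 0.692 to 13.7 in DKO livers, and DKO replicate 4 (diamond) lies near the WT livers for Elovl6 and Elovl7.

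The first comparison asks which of these genes differ when the liver lacks Cpt2. In SKO livers Elovl7 rose from near the detection limit, Elovl5 rose 2.07-fold and Fads2 rose 1.39-fold, while Elovl6 was 3.17-fold lower. These 4 of the 10 genes passed the test. Of all 14261 genes tested, 32.1% passed (16.7% higher and 15.4% lower in SKO), so 3 higher and 1 lower among 10 is close to the background of this comparison. The median log2 fold change of the 10 genes was 0.24, beside 0.031 over all genes tested. The ranges of the 4 SKO and the 4 WT livers did not overlap for the same 4 genes, beside 33.2% of all genes. Expression was tested by the quasi-likelihood method of edgeR, with Benjamini-Hochberg adjustment over all genes tested, and a gene is called when its adjusted p is under 0.05.

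Elovl7, which elongates saturated and monounsaturated chains, had 4, 2, 12 and 8 counts (0.208, 0.127, 0.780 and 0.440 CPM) in the WT livers. The SKO livers had 410, 603, 734 and 608 counts (26.6, 30.9, 38.1 and 34.1 CPM). Every SKO liver thus lay far above every WT liver. The fitted log2 difference was 6.38 ± 0.34 (SE), an 83.4-fold difference, with an adjusted p of 5.5e-07 by edgeR's quasi-likelihood test. WT replicate 2 is below the floor of 3 counts, so the size of the fold rests on 26 WT counts in all.

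Elovl5, the elongase of C18 and C20 polyunsaturated chains, was at 472, 495, 341 and 415 CPM in WT livers. It was at 887, 727, 1031 and 928 CPM in SKO livers, and the lowest SKO liver was above the highest WT liver. The log2 fold change of 1.05 ± 0.16, or 2.07-fold, had an adjusted p of 0.000493 by edgeR's quasi-likelihood test. Elovl2, which acts on C20 and C22 polyunsaturated chains, overlapped between the groups, at 697 to 842 CPM in WT and 745 to 1006 in SKO livers, with a log2 fold change of 0.20 ± 0.14 and an adjusted p of 0.317 by edgeR.

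Elovl6, the elongase that takes palmitate to stearate, was at 36.8, 31.1, 32.3 and 43.4 CPM in WT livers. The SKO livers had 13.6, 13.3, 12.4 and 6.12 CPM, all below every WT liver. Elovl6 fell by 1.67 ± 0.23 on the log2 scale, which is 3.17-fold lower, with an adjusted p of 0.000232 by edgeR's quasi-likelihood test. Elovl6 and Elovl7, both elongases of saturated chains, thus went in opposite directions. The calls of Elovl5, Elovl6 and Elovl7 held in all 13 alternative analyses of this comparison.

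Elovl3, an elongase of very long saturated and monounsaturated chains, was at 75.1, 90.1, 51.4 and 83.5 CPM in WT livers. In SKO livers it was at 47.5, 24.9, 8.11 and 57.2 CPM, overlapping with WT through SKO replicate 4. The log2 fold change of -1.13 ± 0.44 had an adjusted p of 0.0708 by edgeR, which is not a call. When SKO replicate 3, a female liver by its transcripts, was left out, the fold change came to -0.80 (adjusted p 0.0383 by edgeR), and without SKO replicate 4, a male liver, it came to -1.48 (adjusted p 0.0347). Elovl3 was lowest in the 2 livers with Xist counts, SKO replicate 3 (8.11 CPM) and DKO replicate 4 (12.4 CPM), and lay between 24.9 and 91.3 CPM in the other 10 livers. With 1 such liver in each KO group and none in WT, the part of sex in this gene was not tested. Elovl1, which extends chains for sphingolipids, was at 21.4 to 29.9 CPM in WT and 25.9 to 40.5 in SKO livers, with a log2 fold change of 0.38 ± 0.16 (adjusted p 0.0886 by edgeR, and 0.0241 without SKO replicate 3). Without SKO replicate 3, 6 of the 10 genes were called, when 32.5% of all genes tested passed.

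Among the desaturases, Fads2 was at 507, 561, 780 and 658 CPM in WT livers and at 834, 1030, 809 and 813 CPM in SKO livers. Its groups did not overlap, and the log2 difference of 0.47 ± 0.16 had an adjusted p of 0.0423 by edgeR's quasi-likelihood test. The Fads2 call was lost when any of WT replicates 1, 2 and 4 or SKO replicates 1 and 2 was left out (log2 fold change 0.37 to 0.50, adjusted p 0.0548 to 0.143). Fads1 was at 239 to 345 CPM in WT and 268 to 403 in SKO livers, with a log2 fold change of 0.26 ± 0.16 and an adjusted p of 0.241 by edgeR. Fads3 (log2 fold change 0.21 ± 0.28, adjusted p 0.606) and Scd2 (-0.56 ± 0.32, adjusted p 0.206) did not pass edgeR's quasi-likelihood test either. Scd2 had only 35 to 122 counts in any liver.

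The second comparison asks how the genes stand in livers labelled as deleted for Atf3 together with Cpt2. In DKO livers Elovl5 and Elovl7 were higher than in WT, and the other 8 genes did not pass the test. The 2 called genes of 10 compare with 10.5% of 14448 genes tested (6.06% higher and 4.39% lower), and 1 of the 10 genes, Elovl5, had groups without overlap, beside 16.8% of all genes. The median log2 fold change of the 10 genes was 0.27, beside 0.030 over all genes. The comparison uses the same 4 WT livers as that of SKO against WT, so the 2 sets of values are not independent.

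Elovl7 had 177, 135, 269 and 13 counts in the DKO livers, which is 8.54, 8.27, 13.7 and 0.692 CPM. Replicate 4 lay within the WT range and the other 3 livers lay above it. The log2 difference from WT was 4.33 ± 0.84, with an adjusted p of 0.0184 by edgeR's quasi-likelihood test, and 4.72 with an adjusted p of 1.3e-05 without DKO replicate 4. Elovl5 was at 961, 1300, 941 and 587 CPM in the DKO livers, all above the WT maximum of 495 CPM. The log2 difference of 1.14 ± 0.23 had an adjusted p of 0.0204 by edgeR, and 1.31 with an adjusted p of 9.5e-05 without DKO replicate 4. Both calls depended on the livers included. The Elovl5 call was lost when any 1 liver other than DKO replicate 4 was left out (log2 fold change 0.97 to 1.21, adjusted p 0.0534 to 0.0653), and the Elovl7 call was lost without WT replicate 1, 2 or 4 or DKO replicate 3 (log2 fold change 3.91 to 4.41, adjusted p 0.0573 to 0.0639).

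Elovl6 was at 6.99, 7.90, 12.6 and 36.1 CPM in the DKO livers, with replicate 4 among the WT values and the others below them. Over all 4 livers its log2 difference from WT, -1.15 ± 0.47, had an adjusted p of 0.137 by edgeR, and without replicate 4 it came to -1.96 (adjusted p 4.3e-05). Without that liver 3 of the 10 genes were called (Elovl5 and Elovl7 higher, Elovl6 lower), when 35.9% of all genes tested passed. Elovl3 was at 91.3, 75.2, 65.4 and 12.4 CPM, and its log2 fold change was -0.29 ± 0.47 (adjusted p 0.725) with replicate 4 and 0.049 (adjusted p 0.863) without it, by edgeR. Elovl1 and Elovl2 had log2 fold changes of 0.26 ± 0.13 and 0.24 ± 0.20 (adjusted p 0.233 and 0.453 by edgeR), and of 0.25 and 0.27 without replicate 4.

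Among the DKO livers, the 3 Fads genes were each highest in replicate 4. Fads1 was at 330, 258, 288 and 564 CPM, Fads2 at 676, 689, 622 and 1022 CPM, and Fads3 at 43.9, 44.5, 27.9 and 67.5 CPM in the DKO livers. Their log2 fold changes against WT were 0.37 ± 0.25, 0.28 ± 0.21 and 0.64 ± 0.32, with adjusted p of 0.357, 0.399 and 0.216 by edgeR. Without replicate 4 they came to 0.063, 0.085 and 0.38. Scd2, at 2.27 to 4.02 CPM, had a log2 fold change of -0.56 ± 0.31 (adjusted p 0.256 by edgeR), and of -0.57 without replicate 4.

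The third comparison sets the livers labelled as DKO against the SKO livers, which by their labels differ in the deletion of Atf3. Atf3 stood at 7.91, 10.8, 13.5 and 0.266 CPM in the DKO livers, below every SKO liver (14.5 to 54.0 CPM). Only DKO replicate 4 lay below WT, so the transcript was lower than in SKO but still counted in the other 3 DKO livers. Elovl7 was the one gene of the 10 whose groups did not overlap, with the highest DKO liver (13.7 CPM) below the lowest SKO liver (26.6 CPM). The log2 difference was -2.04 ± 0.57, or 4.12-fold lower in DKO, and the unadjusted p of 0.00465 became 0.469 after Benjamini-Hochberg adjustment in edgeR's quasi-likelihood test. Leaving out DKO replicate 4 brought it to -1.67 (adjusted p 0.0152 by edgeR), and among the male livers by transcript, 3 of each genotype, it came to -1.57 (adjusted p 0.0202). Over 14 alternative analyses the adjusted p was 0.0152 to 0.906, and these were the only 2 under 0.05.

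By edgeR's quasi-likelihood test 0 of the 10 genes were called between DKO and SKO, 1 had an unadjusted p under 0.05, and DESeq2 called 0. Among all 14363 genes tested, 3 were called, which is 0.0209% (0.00696% higher and 0.0139% lower), and 3.94% had groups without overlap. Without DKO replicate 4, Elovl7 was 1 called gene of the 10, when 0.103% of all genes passed. The median log2 fold change of the 10 genes was 0.074, beside 0.0086 over all genes. The other 9 genes had log2 fold changes from -0.19 (Fads2, SE 0.21) to 0.84 (Elovl3, SE 0.61). Elovl5 differed by 0.098 ± 0.23 and Elovl6 by 0.53 ± 0.51 on the log2 scale. Without DKO replicate 4 the values of Elovl6 and Fads1 changed sign, to -0.30 and -0.20, and those of Elovl2 and Elovl5 changed sign without DKO replicate 2, to -0.17 and -0.077, none of them called. For Elovl3, Elovl6 and Fads3 (0.44 ± 0.29) a log2 difference of 1 lies within 2 of these standard errors, so their differences are poorly bounded.

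**Figure D2:**
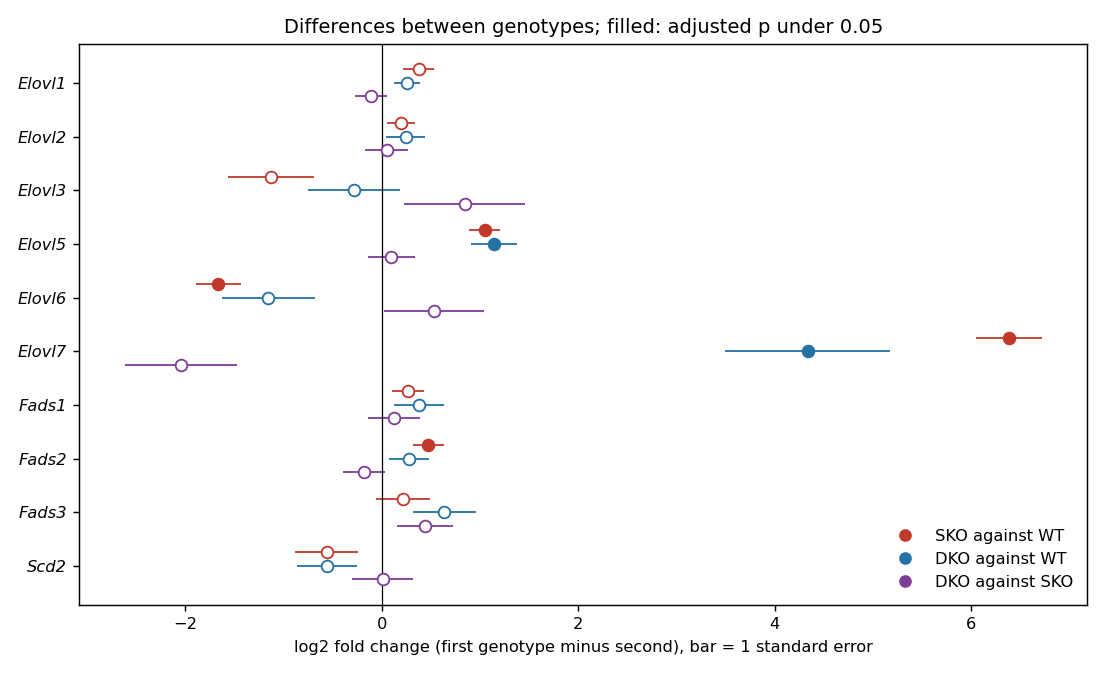
Log2 fold change of each of the 10 genes (x axis, first genotype minus second) with 1 standard error (bar) for the 3 comparisons, filled where the adjusted p of edgeR's quasi-likelihood test is under 0.05. Elovl7 stands at 6.38 for SKO against WT and 4.33 for DKO against WT, Elovl5 at 1.05 and 1.14, and no point of DKO against SKO is filled.

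The makeup of the elongase transcripts was followed as the share of each gene in the summed FPKM of the 6 elongase genes of a liver, which the number of reads in the liver does not affect. Elovl5 took 27.7 to 34.8% of the sum in WT livers, and 46.3 to 53.0% and 41.3 to 52.7% in the SKO and DKO groups, so every KO liver lay above every WT liver. The share of Elovl2 ran from 49.9 to 60.7% among WT livers, from 42.4 to 44.7% among SKO livers and from 36.6 to 52.9% among DKO livers. The ratio of Elovl2 to Elovl5 FPKM was 1.43 to 2.19 in WT livers and 0.800 to 0.963 in SKO livers, so Elovl2 was the more abundant in every WT liver and Elovl5 in every SKO liver. It was 0.702, 0.922 and 0.717 in DKO replicates 1 to 3 and 1.28 in replicate 4. Elovl6 took 1.20 to 1.92% in WT and 0.167 to 0.478% in SKO livers, and Elovl7 took 0.0078 to 0.056% in WT and 1.24 to 1.78% in SKO livers, so Elovl7 passed Elovl6 in each SKO liver. The summed elongase level ran from 367 to 421 FPKM among WT, from 449 to 582 among SKO and from 425 to 777 among DKO livers. These shares are a description, with no test.

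**Figure D3:**
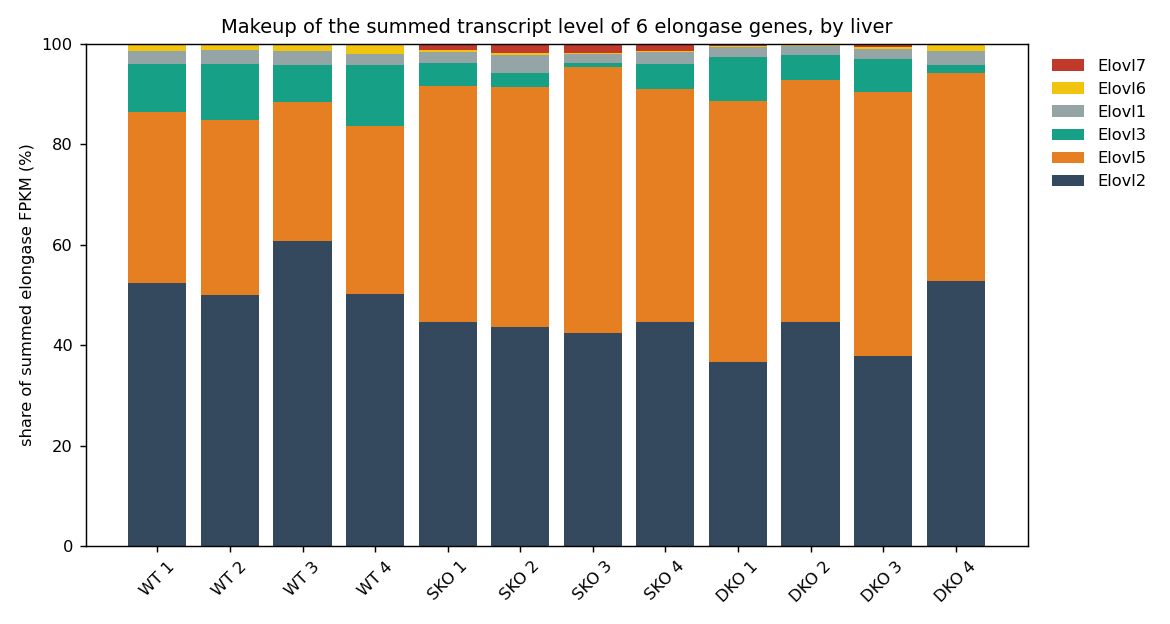
Share (%) of the summed FPKM of 6 elongase genes taken by each gene (stacked bars from 0) in each of the 12 livers. Elovl5 takes 27.7 to 34.8% in the WT bars and 46.3 to 53.0% in the SKO bars, and the bar of DKO replicate 4 has the smallest Elovl5 share of the DKO livers, 41.3%.

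Other family genes were read beside the 10. Scd1, the main delta-9 desaturase of liver, was at 635, 617, 496 and 532 CPM in WT livers and at 449, 118, 64.1 and 132 CPM in SKO livers. It fell by 1.58 ± 0.47 on the log2 scale with an adjusted p of 0.0233 by edgeR, and stood at 390, 134, 652 and 397 CPM in DKO livers (log2 fold change against WT -0.52 ± 0.38, adjusted p 0.397). The Scd1 call was lost without SKO replicate 2 or SKO replicate 4 (adjusted p up to 0.0723 by edgeR), and held without SKO replicate 3 (log2 fold change -1.29). Without SKO replicate 1, the SKO liver with the highest Scd1 level, the log2 fold change was -2.44 (adjusted p 6.26e-05 by edgeR). Fads6 fell in both KO groups, by 0.77 ± 0.12 in SKO and by 0.66 ± 0.11 in DKO livers (adjusted p 0.000523 and 0.0130 by edgeR), and the DKO call was lost without WT replicate 2 (adjusted p 0.0546). Degs1, which places the double bond of ceramide, was not called by edgeR in either comparison (log2 fold changes -0.088 and -0.32), and DESeq2 called it lower in DKO livers (adjusted p 0.0403). Elovl4 had 0 counts in all 12 livers, which allows up to 3 counts or 0.150 to 0.204 CPM per liver, and Scd3, Scd4 and Degs2 were too low to test. In all, 2 of 3 tested genes of this list were called lower in SKO (median log2 fold change -0.77, beside 0.031 over all genes, of which 15.4% were called lower) and 1 of 3 in DKO livers (median -0.52, beside 0.030 and 4.39%). These counts were the same without SKO replicate 3 and without DKO replicate 4.

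The enzymes that complete each elongation cycle included 3 genes higher and 1 lower in SKO livers. Hsd17b12, the ketoacyl-CoA reductase, rose from 106 ± 8.66 to 181 ± 24.5 CPM (log2 fold change 0.77 ± 0.13), and the dehydratases Hacd1 (1.17 ± 0.25) and Hacd3 (0.65 ± 0.11) also rose. Tecr, the enoyl-CoA reductase of the last step, fell from 143 ± 13.5 to 109 ± 10.2 CPM (-0.40 ± 0.12), a call lost in 7 of 13 alternative analyses, among them those without WT replicate 3 or 4 or SKO replicate 1 or 4 (adjusted p up to 0.0852 by edgeR). These 4 are of 6 tested genes, beside 32.1% of all genes, with a median log2 fold change of 0.44 beside 0.031, and the count was the same without SKO replicate 3. In DKO livers 1 of 6, Hacd1, was called by edgeR (1.27 ± 0.33), beside 10.5% of all genes, and 4 of 6 without DKO replicate 4, beside 35.9%. With all livers DESeq2 called Hsd17b12 higher as well (0.39, adjusted p 0.0300). The Hacd1 call was lost when any 1 of the other 7 livers was left out (adjusted p up to 0.119 by edgeR). Desaturases take electrons from cytochrome b5 and its reductases, and of 5 tested genes of that system Cyb5b (-0.52 ± 0.13) and Cyb5r3 (-0.79 ± 0.11) fell in SKO livers, 2 of 5 beside 15.4% of all genes called lower, with a median of -0.14. The Cyb5b call was lost in the fit of all 12 livers (adjusted p 0.156 by edgeR). Without SKO replicate 3, Cyb5r1 (0.72) was called higher as well. None was called by edgeR, 0 of 5, in DKO livers (median -0.11), where 1, Cyb5r3, had an unadjusted p under 0.05. DESeq2 and the edgeR fit of all 12 livers called Cyb5r3 lower (-0.68 in both, adjusted p 0.0291 and 0.0401), and edgeR called 2 lower without DKO replicate 4 (Cyb5b and Cyb5r3), beside 35.9% of all genes.

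Peroxisomes shorten the very long and polyunsaturated chains that elongases make, including in the last step to docosahexaenoic acid. In SKO livers 4 of the 6 genes read here rose and none was called lower (median log2 fold change 0.60, beside 0.031 over all genes, of which 16.7% were called higher), with the same count without SKO replicate 3. Acaa1b, a peroxisomal thiolase, rose from 1603 ± 337 to 7556 ± 1398 CPM (log2 fold change 2.24 ± 0.20). Hsd17b4, Acaa1a and Abcd3 rose by 0.50 to 0.79 on the log2 scale, and the Hsd17b4 call was lost in the fit of all 12 livers (adjusted p 0.0614 by edgeR) and without WT replicate 1 (0.0545). In DKO livers Acaa1b alone was called of the 6 (1.45 ± 0.35, median of the list 0.32), beside 6.06% of all genes called higher. Without DKO replicate 4, 3 of 6 were called, beside 35.9% of all genes, with Acaa1b (1.71) and Acaa1a (0.53) higher and Abcd2, a peroxisomal acyl-CoA transporter, lower (-1.12, adjusted p 0.00723 by edgeR, against a log2 fold change of 0.56 with all livers). When any 1 of the other 7 livers was left out, the Acaa1b call was lost (adjusted p up to 0.101 by edgeR). Of 6 genes that place acyl chains into phospholipids, Lpcat3, which prefers polyunsaturated chains, rose in SKO livers (0.67 ± 0.11). In DKO livers its log2 fold change of 0.46 ± 0.13 just passed (adjusted p 0.0476 by edgeR), and the call was lost in 10 of 13 alternatives, including those without each single liver other than DKO replicate 4 (adjusted p up to 0.147). Mboat7, which places arachidonate into phosphatidylinositol, fell in SKO livers (-0.47 ± 0.14), a call lost without WT replicate 3, WT replicate 4 or SKO replicate 4 (adjusted p up to 0.0683 by edgeR). In all, 2 of the 6 were called in SKO, beside 32.1% of all genes, and 1 of the 6 in DKO livers, beside 10.5%. The medians of this list were 0.22 and -0.022, and its counts of called genes were the same without SKO replicate 3 and without DKO replicate 4. Of 4 tested ceramide synthases 0 were called by edgeR in SKO or in DKO livers (medians 0.11 and -0.042), 0 had an unadjusted p under 0.05 in either comparison, and DESeq2 called 0. Without DKO replicate 4, 1 of the 4, Cers2, was called lower in DKO livers (-0.33, adjusted p 0.0250 by edgeR).

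Among 12 regulators of these genes, 3 rose and 4 fell in SKO livers, beside 16.7% higher and 15.4% lower of all genes, with a median of 0.17, and Srebf2 (-0.77) was called lower as well without SKO replicate 3. Srebf1, which encodes the sterol regulatory element-binding protein that drives fatty acid synthesis, was at 53.0, 73.2, 60.2 and 107 CPM in WT and at 30.3, 28.3, 34.7 and 33.0 CPM in SKO livers, without overlap (log2 fold change -1.22 ± 0.20). Insig1, a target of that pathway which holds the protein in the endoplasmic reticulum, fell by 1.59 ± 0.28, while Insig2, its counterpart, rose by 1.47 ± 0.37. Mlxipl, the carbohydrate-response factor, fell by 0.89 ± 0.21 and Rxra by 0.62 ± 0.15. Pparg rose from 8.04 ± 0.592 to 22.5 ± 2.18 CPM (1.48 ± 0.14), and Nr1h2, a liver X receptor, by 0.43 ± 0.11. The Insig1 call was lost in the fit of all 12 livers (adjusted p 0.0802 by edgeR) and the Nr1h2 call without WT replicate 1 (0.0525). In DKO livers Insig2 (2.16 ± 0.44) and Pparg (1.27 ± 0.17) were higher and Rxra (-0.67 ± 0.18) lower, 2 of 12 and 1 of 12 beside 6.06% higher and 4.39% lower of all genes, with a median of -0.092, and 8 of 12 were called without DKO replicate 4, beside 35.9% of all genes. Leaving out any 1 of the other 7 livers lost the calls of Insig2 (adjusted p up to 0.0665 by edgeR) and Rxra (up to 0.125), while Pparg was called in all 13 alternatives. Srebf1 was at 29.4, 26.8, 25.9 and 112 CPM in the DKO livers, so replicate 4 held the highest Srebf1 level of that group as it held the highest Elovl6 level. Between DKO and SKO livers edgeR called 0 of the 43 tested genes of the 7 lists, 3 had an unadjusted p under 0.05 (Hsd17b12, Acaa1b and Abcd3), and DESeq2 called 0.

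**Figure D4:**
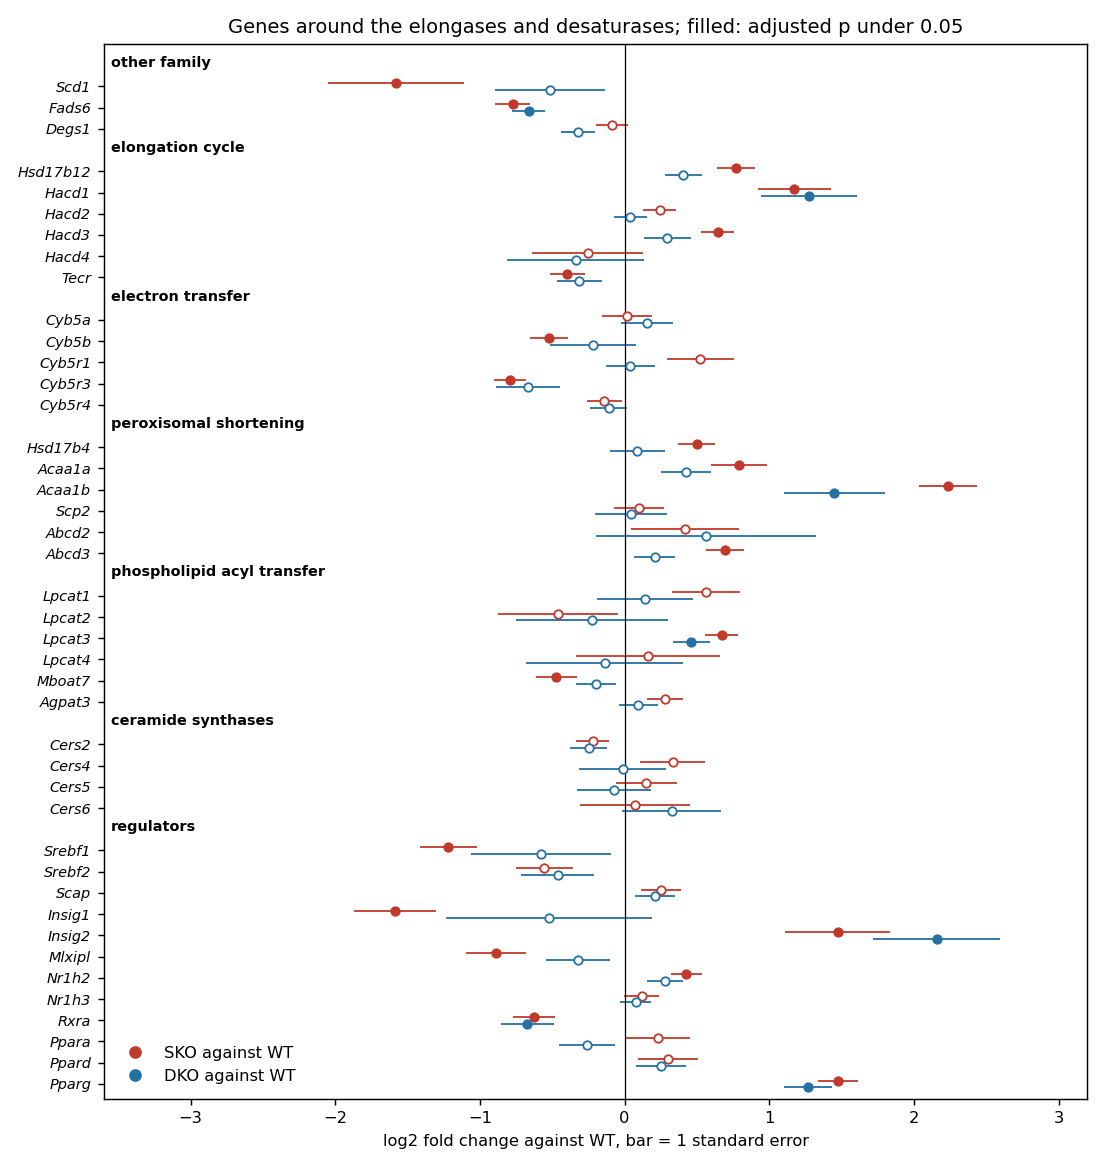
Log2 fold change against WT (x axis, bar = 1 standard error) of the tested genes of 7 lists around the elongases and desaturases, in SKO (red) and DKO (blue) livers, filled where the adjusted p of edgeR's quasi-likelihood test is under 0.05. Acaa1b at 2.24 is the highest filled red point and Insig1 at -1.59 the lowest, and both colours share the same 4 WT livers.

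The samples are whole livers, in which fewer cells of a type and less RNA per cell cannot be told apart. The summed level of 4 hepatocyte marker genes (Alb, Ttr, Fgb and Apob) ran from 65107 to 80601 CPM among WT, from 32103 to 53072 among SKO and from 31479 to 86196 among DKO livers, with the highest DKO value in replicate 4, and all 4 were called lower in SKO (3 of 4 without SKO replicate 3), beside 15.4% of all genes called lower and 16.7% higher. Summed cholangiocyte markers ran from 27.9 to 33.3 CPM among WT, from 7.41 to 14.4 among SKO and from 9.60 to 31.1 among DKO livers, with 2 of 4 tested called lower in SKO. Summed stellate cell markers were at 163 to 195, 225 to 318 and 208 to 265 CPM, with 1 of 6 called higher in SKO, and summed macrophage markers overlapped at 166 to 330, 168 to 395 and 101 to 326 CPM, with 1 of 7 called higher. Without SKO replicate 3 a further macrophage marker was called lower, and the cholangiocyte and stellate counts were the same. Endothelial markers overlapped (154 to 338, 211 to 274 and 186 to 270 CPM), as did lymphocyte markers (at most 4.63 CPM in any liver) and neutrophil markers (at most 1.66 CPM). Erythroid markers were at 113 to 249, 156 to 533 and 127 to 713 CPM, with 2 of 5 called higher and 1 lower in SKO, and 4 higher and 1 lower without SKO replicate 3. Adipocyte markers, 3 genes, summed to at most 0.561 CPM with Lep at 0 in every liver. In DKO against WT, 1 of 7 macrophage, 1 of 4 cholangiocyte and 1 of 5 erythroid markers were called lower, beside 4.39% of all genes. Of the 4 hepatocyte markers edgeR called 0 there, while 1, Apob, had an unadjusted p under 0.05 and was called lower by DESeq2. DESeq2 also called the macrophage marker Cd68 and the stellate marker Dcn higher (unadjusted p 0.00998 and 0.00553 by edgeR). Without DKO replicate 4, edgeR called 4 of 4 hepatocyte, 5 of 7 macrophage, 2 of 5 cholangiocyte and 1 of 5 erythroid markers lower and 1 macrophage and 1 of 6 stellate markers higher, beside 35.9% of all genes called in either direction. The summed hepatocyte, cholangiocyte and stellate cell markers of the SKO livers did not overlap with those of WT, and their part in the differences of the elongase and desaturase genes was not tested.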

How the data were processed

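RNA-seq was run on 12 livers, 4 of each genotype, and samples were grouped by their genotype labels. The files deposited by the authors hold unnormalized counts for each Ensembl gene, and FPKM, which are these counts divided by the listed gene length and by a library size that the authors scaled. The submitters' processing notes name HISAT2 and the build GRCm38 (mm10) with no role, yet only 1485 of 52073 shared genes start where GRCm38 (GENCODE M21) places them, so positions are given as deposited and the build behind them is not stated. The strand setting of the counting is not given in the sources used here, and genes on the other strand that overlap Elovl1 (Cdc20), Elovl3 (Pitx3) and Elovl6 (Gm35986) had 36 to 151 counts over all livers. The authors' tables of fold changes and p-values for each pair of genotypes were not used.

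Pairs of genotypes were tested in edgeR 4.0.16 under R 4.3.3 (TMM within the 8 livers compared, filterByExpr at its default minimum of 10 counts, quasi-likelihood test, two-sided), with Benjamini-Hochberg adjustment over all genes tested and a threshold of 0.05. The standard error is the log2 fold change over the root of F. CPM in the text are counts scaled by TMM over all 12 livers. On simulated counts with 200 genes changed 4-fold, edgeR found 197 for SKO against WT, 191 for DKO against WT and 192 for DKO against SKO, with 11 to 13 false calls. DESeq2 found 197, 195 and 194 of them, with 36 to 37 false calls. The changed genes were drawn from the more highly counted genes, and smaller changes were not simulated. Alternatives were DESeq2 1.42.0, RLE size factors, no filter, 1 fit of all 12 livers, the replicate number as a block, each liver left out, and the livers with Y-linked counts alone. Depth was 14710304 to 20030055 counts per liver, so the floor of 3 counts is 0.150 to 0.204 CPM, and this covers counting error only. All 10 genes passed the filter in each comparison. The text names all 10, the targeted and sex-linked genes, the other family genes, genes of the pathway lists called in any comparison (Hsd17b12, Acaa1b and Abcd3 in the comparison of DKO with SKO, and Abcd2, Cers2, Cyb5r1 and Srebf2, called in alternatives alone, were singled out after their values were seen), and cell markers. The genes and lists were chosen with earlier results of these data known, and 3 genes of the peroxisomal and hepatocyte lists are not reported here. RefSeq promoter windows were searched with Python.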

Additional observations from a re-analysis of the deposited data

Results flagged for a closer look

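In 4 of the 30 groups of 4 livers tested (10 genes in 3 genotypes), 1 liver stood far from the other 3 of its genotype by Dixon's ratio, where chance alone would give about 1.5 (1 in 20). Elovl2 in DKO replicate 2 was at 1349 CPM, with the other DKO livers at 760 to 846. Elovl6 in SKO replicate 4 was at 6.12 CPM, with the others at 12.4 to 13.6. Fads2 in SKO replicate 2 was at 1030 CPM, with the others at 809 to 834. Fads2 in DKO replicate 4, a liver with Xist counts, was at 1022 CPM, with the others at 622 to 689. The cause of these values was not tested.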

How the results depend on the processing

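Of 400 alternative values of the fold changes of the 10 genes, 372 kept their side of the threshold, 19 lost the call and 9 gained one. In 16 of them the sign changed, none with a call: Elovl3 in DKO against WT without DKO replicate 4, and Elovl2, Elovl5, Elovl6, Fads1 and Scd2 in DKO against SKO. With all livers kept, no alternative moved the median log2 fold change of all genes by more than 0.031. For SKO against WT, leaving out 1 liver gave 3 to 6 called genes of the 10 and 3617 to 4711 of all genes. For DKO against WT, DESeq2 called 2635 genes and the replicate block 691, while leaving out 1 liver gave 244 (without WT replicate 2) to 5253 (without DKO replicate 4), and 0 to 3 of the 10 genes. For DKO against SKO, DESeq2 called 97 genes, no filter on low counts 35, the replicate block 0 and the livers with Y-linked counts alone 21, and leaving out 1 liver gave 0 to 15. Elovl7 was 1 called gene of the 10 with the Y-linked livers alone, and leaving out 1 liver gave 0 to 1. The cause of these shifts was not tested. Correlations of the deviations of same-numbered livers were -0.43 to 0.16 and not all over 0.1, so they do not show that replicate numbers pair the livers. With 4 livers per genotype they cannot exclude a pairing either. With the replicate block, Fads2 lost its call in SKO (adjusted p 0.0747), while Elovl3 in SKO (log2 fold change -1.41, adjusted p 0.00790) and Fads3 in DKO (0.65, adjusted p 0.0486) gained one in edgeR's quasi-likelihood test. Fads2 in SKO also lost its call with RLE size factors (adjusted p 0.0548) and in the fit of all 12 livers (0.0961), and Elovl3 in SKO was called without the filter (adjusted p 0.00295). Of 280 counts of called pathway genes, 231 stayed within 1.5 times. Elovl7 in WT livers and Scd2 in all livers rest on few counts. With 4 livers per genotype, the standard errors of DKO against WT were widest for Elovl7 (0.84), Elovl6 (0.47) and Elovl3 (0.47).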
